A study of Mus musculus with 4 samples.

Results

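Mdm2, Ccng1, Btg2, Trp53inp1, Plk2, Plk3, Zmat3, Phlda3, Aen and Fas are target genes of the transcription factor p53 outside the cell-cycle inhibitors. They were taken by gene symbol from the array's probe annotation, and each was read by 1 probe set, so 10 of the 19505 annotated genes are described. The cells were Neuro-2a, a neuroblastoma line from an albino strain A mouse that is often used as a stand-in for neurons. They were exposed to 30 µM deltamethrin, a pyrethroid insecticide, or to vehicle (0.1% DMSO) for 24 h, with 2 Affymetrix Clariom S Mouse arrays per group. The labels name no genetic change, no p53-activating control and no p53-deficient line. Separate cultures for the 2 arrays of a group are not mentioned in the labels, so p-values measure only the spread between these arrays, which may be technical.

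p53 is held at a low level in unstressed cells, mainly because the ubiquitin ligase MDM2, itself the product of a p53 target, marks it for degradation. When DNA damage or another stress blocks that step, p53 binds paired decamer sites near its targets, and their products arrest the cycle, repair DNA, alter metabolism or start apoptosis. Several of the targets also answer to other inputs: Btg2 and the polo-like kinase genes Plk2 and Plk3 are known as early response genes to growth factors and stress as well. Protein stabilisation of p53 is not visible on an expression array, which reads transcripts alone.

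The sequences just before the transcription starts are given for 5 members. They show which of these carry a match to the p53 or stress motifs searched, beside values that differ in direction. The windows hold the 250 bases upstream of a RefSeq start in GRCm38.p6, written 5′ to 3′ on the gene's strand, and 8 of the 10 members had a window in the table (Aen had 2). Trp53inp1 and Zmat3 had none. Capitals mark matches to the p53 sites and to the stress motifs searched.
Ccng1 (chr11:40755287-40755536, minus strand): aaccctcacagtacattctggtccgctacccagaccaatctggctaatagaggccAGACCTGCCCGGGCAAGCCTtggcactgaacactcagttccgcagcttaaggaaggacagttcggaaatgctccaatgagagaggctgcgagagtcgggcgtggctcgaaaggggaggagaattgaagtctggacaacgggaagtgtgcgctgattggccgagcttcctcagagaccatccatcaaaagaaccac
Mdm2 (chr10:117710759-117711008, minus strand): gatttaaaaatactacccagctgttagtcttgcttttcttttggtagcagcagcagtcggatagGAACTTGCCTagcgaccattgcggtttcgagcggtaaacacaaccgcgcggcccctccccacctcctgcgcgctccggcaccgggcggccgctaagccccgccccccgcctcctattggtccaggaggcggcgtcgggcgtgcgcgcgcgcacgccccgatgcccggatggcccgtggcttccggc
Btg2 (chr1:134079156-134079405, minus strand): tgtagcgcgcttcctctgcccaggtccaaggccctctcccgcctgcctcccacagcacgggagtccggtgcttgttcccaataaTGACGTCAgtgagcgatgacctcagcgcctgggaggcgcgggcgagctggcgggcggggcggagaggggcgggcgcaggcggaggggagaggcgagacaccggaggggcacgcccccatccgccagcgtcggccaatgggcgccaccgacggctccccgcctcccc
Plk2 (chr13:110394794-110395043, plus strand): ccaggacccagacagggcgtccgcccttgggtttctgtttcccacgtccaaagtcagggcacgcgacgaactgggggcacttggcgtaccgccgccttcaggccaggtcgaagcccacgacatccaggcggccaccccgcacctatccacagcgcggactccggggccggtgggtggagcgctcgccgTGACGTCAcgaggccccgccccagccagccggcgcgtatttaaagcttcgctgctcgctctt
Plk3 (chr4:117133964-117134213, minus strand): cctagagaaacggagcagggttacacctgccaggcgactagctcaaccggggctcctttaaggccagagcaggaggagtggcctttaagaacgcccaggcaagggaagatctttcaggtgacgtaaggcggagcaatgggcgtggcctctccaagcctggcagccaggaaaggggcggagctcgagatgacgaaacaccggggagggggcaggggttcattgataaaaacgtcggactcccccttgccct

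In Ccng1 the capitals are a pair of abutting p53 half-sites with 1 mismatch to the consensus, 195 to 176 bases before the start. A pair that good, with the invariant C and G of each half-site core kept and a spacer of 0 to 13 bases, was found in 0.505% of all 32851 windows. In Mdm2 they are a single half-site that matches the 10-letter p53 consensus, 186 to 177 bases before the start, and Aen held such a half-site too, GGGCTTGTCC. Half-sites of this quality are common by comparison and occurred in 7.13% of windows, the one inside the Ccng1 pair being counted among them. The capitals in Btg2 and Plk2 are the cyclic AMP response element TGACGTCA, which CREB and ATF family factors bind. It was in 1.55% of all windows and lay 166 to 159 bases before the Btg2 start and 62 to 55 bases before that of Plk2. The GC content was 73.2% in the Btg2 window and 68.4% in that of Plk2, against a median of 52.4% over all windows. The shares of windows were not matched for this.

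The Plk3 window has no capitals because it held none of the motifs searched, with mismatches allowed only in the paired p53 site. It does hold tgacgtaa, which differs from TGACGTCA by a letter, and such near matches were not counted in any window. These were, on both strands, the p53 half-site and paired site, TGACGTCA, the AP-1 site TGANTCA, the C/EBP-ATF composite TGATGNAA, the antioxidant element core TGACNNNGC and the E-box CACGTG. The window of Fas, not printed, held TGAGTCA, an AP-1 match, and CACGTG, and the second Aen window held CACGTG. AP-1 letters were in 6.75% and E-box letters in 6.02% of all windows. The C/EBP-ATF composite (3.45% of windows) and the antioxidant element core (10.2%) were in 0 of the 9 member windows. A match is a description of letters and says nothing about binding in these cells, and sites further upstream or in introns lie outside these windows.

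In the array data, Trp53inp1, Plk3 and Btg2 had the highest estimates of the 10 in deltamethrin-treated cells, Ccng1 the lowest, and the other 6, Mdm2 among them, lay at most 0.27 from 0 on the log2 scale. None passed the test: 0 of 10 members were called in limma at a Benjamini-Hochberg adjusted p below 0.05 over all probe sets. Of all probe sets 0.432% (96 of 22206) were called, 0.356% as higher and 0.0766% as lower. In simulated data the same fit called 7% of 100 changes of 1 log2 unit and 97% of 100 changes of 2. The lack of a call therefore does not show that a member was unchanged. Unadjusted, 4 of 10 members had a p below 0.05, against 13.7% of all probe sets. Of these, 3 were higher (6.83% of all probe sets) and 1 was lower (6.84%). The arrays of the groups did not overlap for 8 of 10 members and for 43.9% of all probe sets. In 5 members the deltamethrin arrays were the higher ones (20.3% of all probe sets) and in 3 the lower ones (23.5%). With a mean-variance trend, which lets the expected spread depend on the level, 3 of 10 members were called, against 3.63% of all probe sets. The members and the gene lists below were chosen with earlier results of these data known. Their shares beside those of all probe sets are therefore a description and not a test. The median estimate of the members was 0.23 and that of all probe sets -0.02. Values are deposited log2 RMA values, so a difference of 1 is a 2-fold change, and fold changes carry the standard error (SE) of the limma fit with n = 2 arrays per group.

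**Figure D1:**
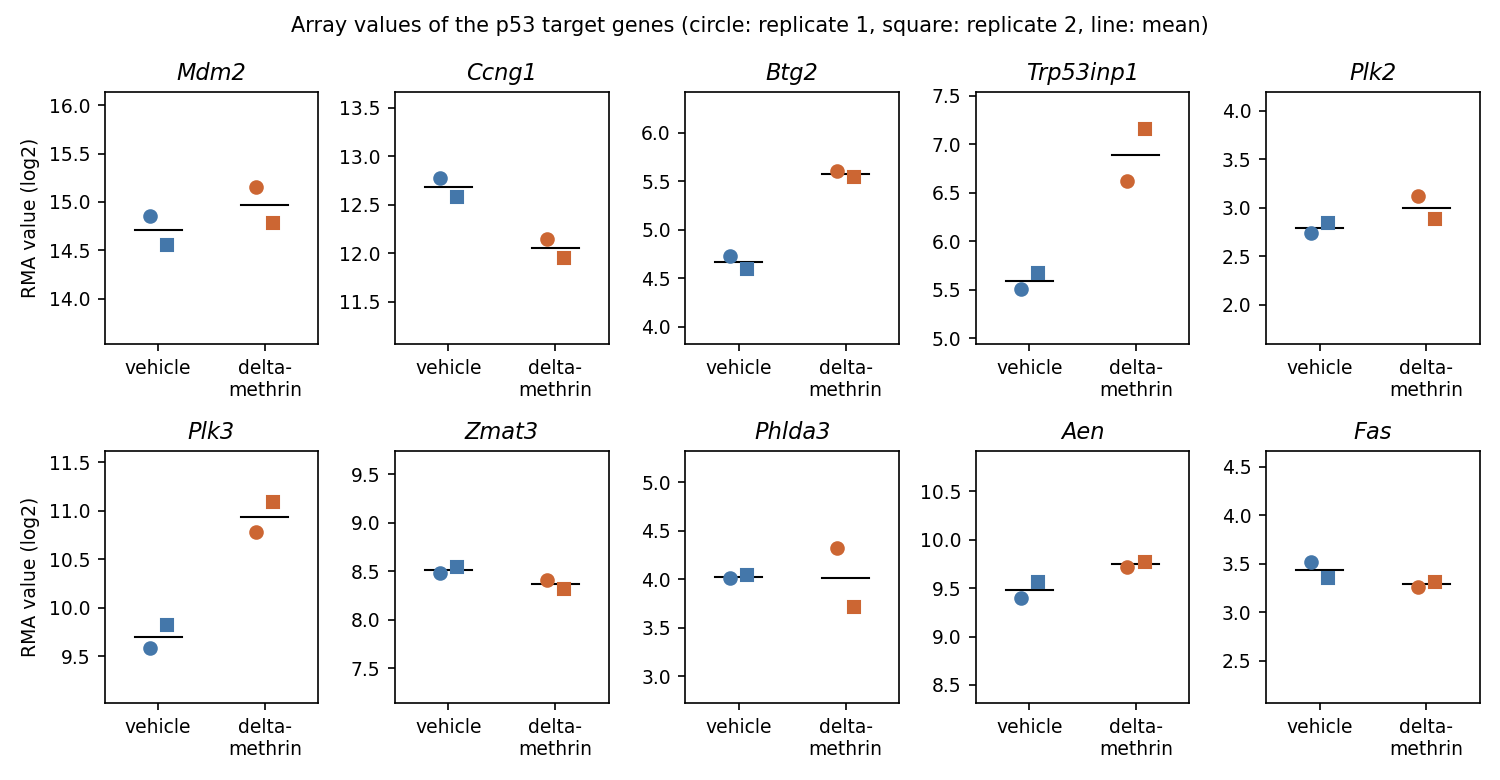
Deposited RMA values (log2, vertical axis, each panel spanning 2.6 units) of the 10 p53 target genes on the vehicle and deltamethrin arrays. Circles are replicate 1, squares replicate 2 and lines the group means. The groups stand furthest apart for Plk3, Trp53inp1 and Btg2, have deltamethrin below vehicle for Ccng1, Zmat3 and Fas, and overlap for Mdm2 and Phlda3.

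**Figure D2:**
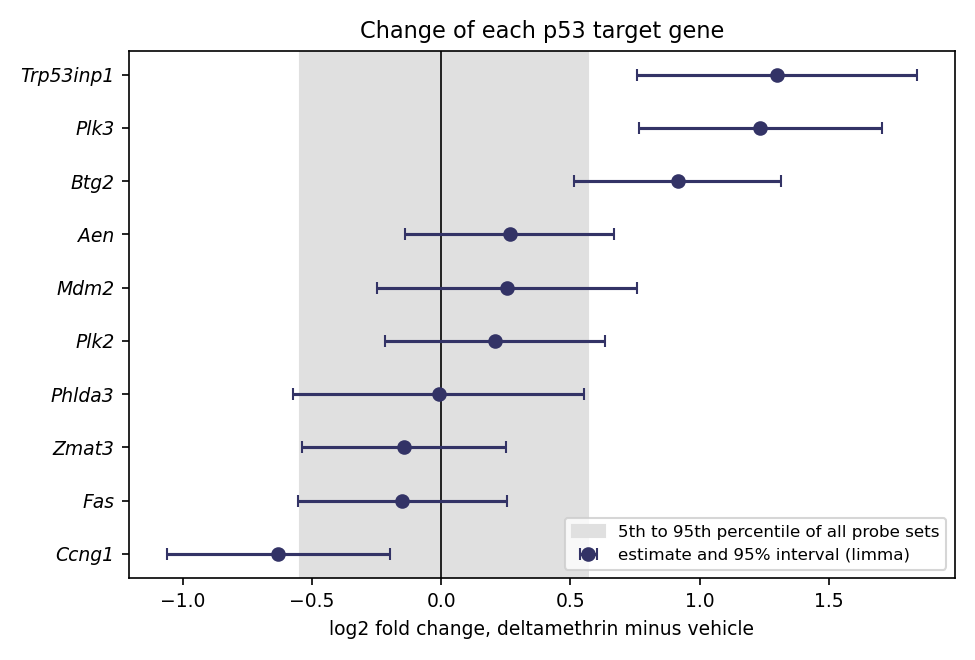
Log2 fold change (deltamethrin minus vehicle, horizontal axis) of each gene, with points for the limma estimate and bars for its 95% interval. The grey band runs from the 5th to the 95th percentile of all probe sets, -0.55 to 0.57. Trp53inp1, Plk3 and Btg2 lie above the band and Ccng1 below it.

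The feedback gene of the p53 loop, Mdm2, whose product ubiquitinates p53 and so closes the negative feedback loop, read 14.86 and 14.56 on the vehicle arrays and 15.15 and 14.78 on the deltamethrin arrays. The groups overlap, since the lower deltamethrin array lies below the higher vehicle array. The log2 fold change was 0.26 ± 0.21 (SE, limma adjusted p = 0.651), and its 95% interval ran from 0.842-fold to 1.69-fold. Without deltamethrin replicate 1 the Mdm2 estimate was 0.07, and without deltamethrin replicate 2 it was 0.44.

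Ccng1 (probe set TC1100002550.mm.2) encodes cyclin G1, which recruits the phosphatase PP2A to MDM2 and is one of the most constant p53 targets in mouse tissues. Its values were 12.78 and 12.58 with vehicle and 12.15 and 11.95 with deltamethrin. Both deltamethrin arrays are below both vehicle arrays, with a gap of 0.43 between the nearest pair, while the arrays within each group differ by 0.20. That is a log2 fold change of -0.63 ± 0.18 (0.646-fold, limma adjusted p = 0.222). With the mean-variance trend Ccng1 passed as lower (adjusted p = 0.0382; 1.38% of all probe sets passed as lower in that fit). Of the 8 members with a window, Ccng1 had the best p53 match and also the lowest estimate. A relation between match and direction was not tested, and Trp53inp1, with the highest estimate, had no window.

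Plk3 (probe set TC0400003361.mm.2), a polo-like kinase linked to stress signalling and the phosphorylation of p53, read 9.58 and 9.82 with vehicle and 10.78 and 11.09 with deltamethrin. Every deltamethrin array is above every vehicle array, by 0.96 at the closest. Plk3 had a log2 fold change of 1.24 ± 0.19 (2.35-fold, 95% interval 1.70 to 3.26, limma adjusted p = 0.0793), the smallest adjusted p of the 10. It passed as higher with a mean-variance trend (adjusted p = 0.00516) and with dim probe sets left out (adjusted p = 0.0308). At an adjusted p below 0.10 Plk3 and Trp53inp1 would be called, as would 0.829% of all probe sets as higher.

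Plk2, the related kinase that acts in centriole duplication and in synaptic homeostasis, read 2.74 and 2.84 with vehicle and 3.12 and 2.88 with deltamethrin. The groups are apart by 0.04, which is less than the 0.24 between the deltamethrin arrays. Its log2 fold change was 0.21 ± 0.18 (limma adjusted p = 0.663), with an interval of -0.22 to 0.64 that does not reach the lower bound of 0.77 for Plk3. The difference between the kinases was not tested. Both groups of Plk2 were dim, that is, below the median of all probe sets (5.60), and the table gives no detection call, so a change in a transcript near background could be missed.

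Btg2 (probe set TC0100003102.mm.2), an antiproliferative protein that recruits the CCR4-NOT deadenylase to mRNAs, read 4.73 and 4.60 with vehicle and 5.61 and 5.55 with deltamethrin. The groups are apart by 0.82 and the arrays within a group by 0.13 at most, the tightest pattern among the 3 highest members. The estimate for Btg2 was 0.92 ± 0.17 (1.89-fold, limma adjusted p = 0.106). It was also dim in both groups. It passed with dim probe sets left out (adjusted p = 0.0386). That filter used a lower cutoff than the median, the 40th percentile of mean values, and kept Btg2 and 6 other members. Btg2 did not pass with a mean-variance trend (adjusted p = 0.0729), which widens the error of dim probe sets. Of all probe sets in the filtered fit, 1.79% passed as higher.

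Trp53inp1 (probe set TC0400000084.mm.2) encodes a nuclear stress protein that binds kinases acting on p53 and, in the cytoplasm, ATG8 proteins of the autophagy machinery. It read 5.51 and 5.67 with vehicle and 6.62 and 7.16 with deltamethrin. Its vehicle mean of 5.59 was just below the median of all probe sets (5.60), so only the deltamethrin group keeps it from being dim. Both deltamethrin arrays are higher, by 0.95 at the closest, and they differ from each other by 0.54. The log2 fold change of 1.30 ± 0.23 (2.46-fold, limma adjusted p = 0.0955) ranked 138th in absolute size among the 22206 probe sets, with Plk3 169th and Btg2 450th. Trp53inp1 passed as higher with a mean-variance trend (adjusted p = 0.0272; 2.25% of all probe sets) and with dim probe sets left out (adjusted p = 0.0387). Its estimate ran from 1.03 without deltamethrin replicate 2 to 1.57 without deltamethrin replicate 1.

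Of the remaining members, Fas, the death receptor at the cell surface, read 3.52 and 3.35 with vehicle and 3.26 and 3.31 with deltamethrin. All 4 values are dim and the groups are apart by 0.04. Its estimate was -0.15 ± 0.17 (limma adjusted p = 0.758), with an interval from 0.680-fold to 1.19-fold.

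Aen, an exonuclease that takes part in apoptotic DNA breakdown, read 9.40 and 9.56 with vehicle and 9.72 and 9.77 with deltamethrin. Its deltamethrin arrays are the higher ones, but the gap of 0.16 equals the difference between the vehicle arrays. The estimate for Aen was 0.27 ± 0.17 (limma adjusted p = 0.548).

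Phlda3, a pleckstrin homology protein that competes with AKT for membrane lipids, read 4.01 and 4.04 with vehicle and 4.32 and 3.71 with deltamethrin. One deltamethrin array is above both vehicle arrays and the other below, so the groups overlap. The estimate of -0.01 ± 0.23 (limma adjusted p = 0.991) therefore averages arrays that moved in opposite directions, and it turned positive under quantile normalization (0.0425) and cyclic loess normalization (0.0272). Phlda3 was dim in both groups.

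Zmat3, a zinc finger protein that binds RNA and regulates splicing, read 8.48 and 8.54 with vehicle and 8.41 and 8.32 with deltamethrin. The deltamethrin arrays are lower by 0.07 at the closest, a gap within the 0.09 between them. Its log2 fold change was -0.15 ± 0.16 (limma adjusted p = 0.759), with an interval of -0.54 to 0.25.

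**Figure D3:**
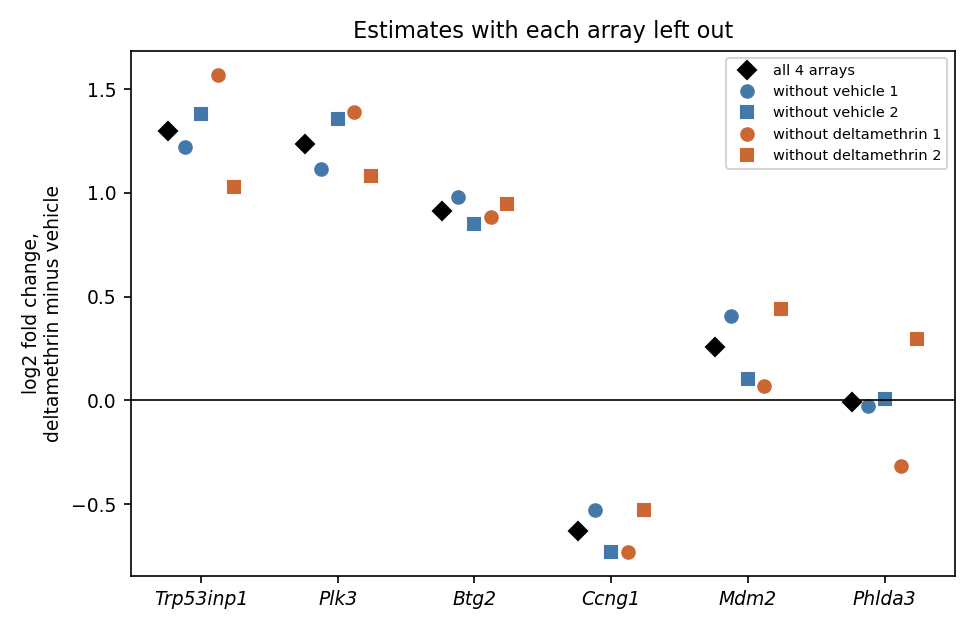
Log2 fold change (deltamethrin minus vehicle, vertical axis) of 6 members in limma with all 4 arrays (diamonds) and with each array left out (circles and squares). Trp53inp1, Plk3 and Btg2 stay above 0 and Ccng1 below 0 in every case, which follows from groups that do not overlap. Phlda3 lies on either side of 0.

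For the 4 members furthest from 0 the groups do not overlap, so leaving out any 1 of the 4 arrays could not change their direction. Only the size of the estimate could vary. Plk3 ran from 1.08 to 1.39, Btg2 from 0.85 to 0.98 and Ccng1 from -0.73 to -0.53. No member was called in any of those 4 fits, in which 0 probe sets were called at all.

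Genes that control p53 had mixed estimates, with 6 of 18 measured genes higher, 12 lower and a median of -0.09. None was called in limma, where 2 were higher (6.83% of all probe sets) and 3 lower (6.84%) at an unadjusted p below 0.05. The gene of p53 itself was not analysed here. Mdm4, the MDM2 relative that masks the p53 activation domain, read 11.45 and 11.42 with vehicle and 11.87 and 11.91 with deltamethrin, a log2 fold change of 0.46 ± 0.16 (limma adjusted p = 0.303). The phosphatase gene Ppm1d, itself a p53 target that turns the response off, was at -0.15.

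With a mean-variance trend 1 of these control genes passed as higher (2.25% of all probe sets) and 1 as lower (1.38%). Rchy1, whose product Pirh2 is a second ubiquitin ligase for p53, was at 0.78 ± 0.18 (limma adjusted p = 0.156; 0.0132 with the trend). Hipk2, a kinase that phosphorylates p53 on the way to apoptosis, was at -0.91 ± 0.18 (adjusted p = 0.130; 0.0170 with the trend). Its values were 10.99 and 10.82 with vehicle against 10.12 and 9.87 with deltamethrin, so the groups do not overlap.

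Other p53 targets lay on both sides of 0. Of 29 measured genes in the arrest, death, repair and metabolism lists, 15 had higher and 14 lower estimates, with a median of 0.03. None was called in limma. At an unadjusted p below 0.05, 5 were higher (6.83% of all probe sets) and 5 lower (6.84%). With a mean-variance trend 4 passed as higher (2.25% of all probe sets) and 3 as lower (1.38%). Cdkn1a, the CDK inhibitor p21 and the best known p53 target, read 13.65 and 13.52 with vehicle and 13.93 and 13.72 with deltamethrin, a log2 fold change of 0.24 ± 0.18 (limma adjusted p = 0.608). The groups are separated by less than the arrays within the deltamethrin group differ.

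Those that passed with the trend as higher were Gadd45a, Rrm2b, Sesn2 and Ddit4. Gadd45a, a growth arrest and DNA damage protein, had the largest estimate at 0.98 ± 0.19 (limma adjusted p = 0.124; 0.0208 with the trend), from 8.88 and 8.95 to 9.72 and 10.06. Rrm2b, the p53-inducible ribonucleotide reductase subunit, was at 0.72, and Sesn2 and Ddit4, which restrain mTORC1, were at 0.79 and 0.65. Those that passed with the trend as lower were Gtse1 (-0.70), a G2 and S phase protein that moves p53 out of the nucleus, the translesion polymerase gene Polh (-0.70) and Ccng2 (-0.64).

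Among the 9 measured death targets 2 had higher and 7 lower estimates, and 0 passed with the trend (3.63% of all probe sets). Bbc3, the BH3-only protein PUMA, read 4.10 on both vehicle arrays and 4.68 and 4.27 with deltamethrin (0.38 ± 0.20, limma adjusted p = 0.468). Pmaip1, NOXA, was at -0.13, and Pidd1, a death domain scaffold of caspase-2, at -0.69 ± 0.24 (adjusted p = 0.303). Eda2r, a death receptor of the TNF receptor family, was dim, with 2.82 and 2.97 with vehicle and 2.49 and 2.42 with deltamethrin (-0.44 ± 0.17, limma adjusted p = 0.335). Of the 9 genes 6 were dim, Bbc3 and Pmaip1 among them.

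**Figure D4:**
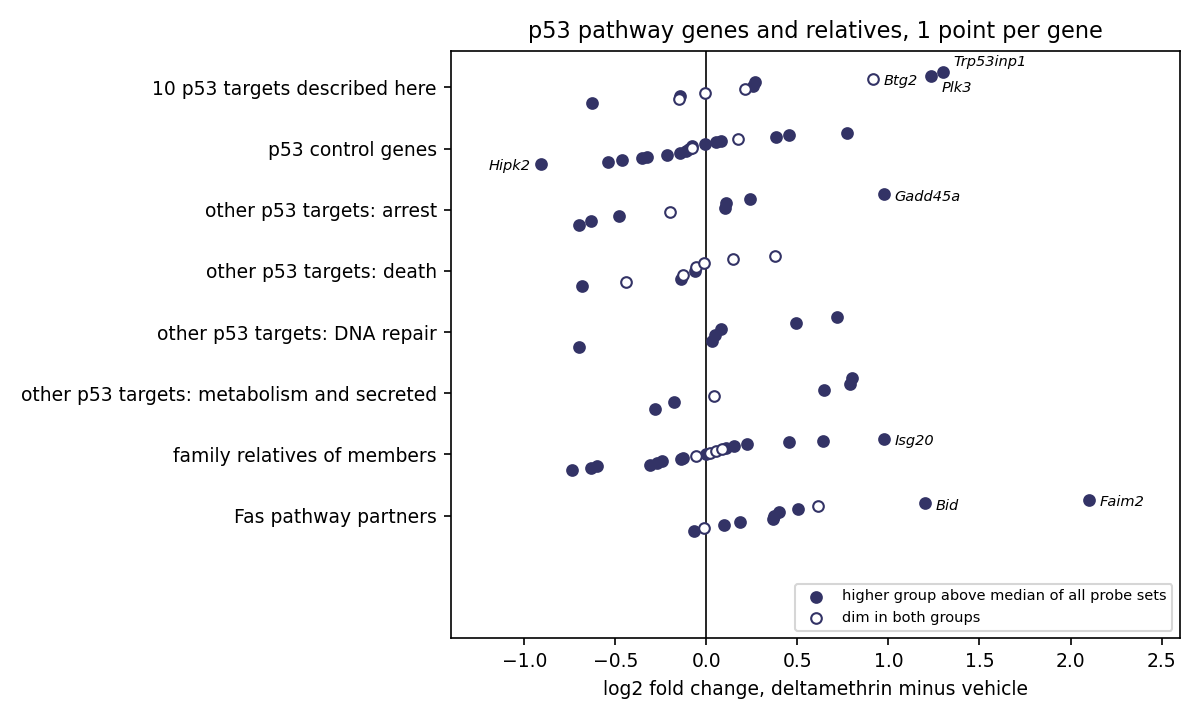
Log2 fold change (deltamethrin minus vehicle, horizontal axis) of each gene, 1 point per gene, for the 10 members, the control genes, 4 groups of other p53 targets, family relatives and Fas pathway partners. Filled points exceed the median of all probe sets in their higher group and open points do not. Points lie on both sides of 0 in the p53 lists, and Faim2, a Fas pathway partner at 2.10, lies furthest to the right.

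Around Fas, the receptor's own estimate was near 0. In limma 1 of 11 measured partners, a list also chosen with earlier results known, rose and 0 fell, against 0.356% and 0.0766% of all probe sets. That gene was Faim2, a membrane protein of neurons that inhibits Fas-induced death, with values of 10.48 and 10.73 with vehicle and 12.57 and 12.84 with deltamethrin. All deltamethrin arrays exceed all vehicle arrays by far more than the arrays within a group differ. The log2 fold change was 2.10 ± 0.19 (limma adjusted p = 0.0189). The call was lost with any 1 of the 4 arrays left out, with estimates from 1.97 to 2.24, and in limma without moderation. In each of these fits every other call over all probe sets was lost too, so the loss is not particular to Faim2.

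Bid, which carries the death receptor signal to mitochondria once caspase-8 cuts it, read 7.11 and 7.16 with vehicle and 8.24 and 8.43 with deltamethrin (1.20 ± 0.17, limma adjusted p = 0.0582; 0.0134 with a mean-variance trend). The ligand gene Fasl was dim in both groups, with an estimate of 0.62 ± 0.23 (adjusted p = 0.329), and the adaptor gene Fadd was at 0.10. Of the 11 partners, 9 had higher estimates and the median was 0.37. Over all probe sets, 10309 of 22206 had higher estimates and the median was -0.02.

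Relatives of the members in the same gene families had estimates on both sides, with 9 of 19 higher, 9 lower, 1 at 0 and 0 called in limma. At an unadjusted p below 0.05, 2 were higher (6.83% of all probe sets) and 3 lower (6.84%). Mdm4 and Ccng2 are among these and, like Tob1, were also counted in the p53 lists above. Tnfrsf10b was likewise counted with both the death targets and the Fas partners, so the list counts are not separate. Among polo-like kinases, Plk1, the mitotic kinase, was at -0.74 ± 0.19 (limma adjusted p = 0.193; 0.0169 with a mean-variance trend), the opposite sign to Plk3. The centriole kinase gene Plk4 was at -0.14 and the dim Plk5 at 0.09. Cyclin G2, Ccng2, read 12.48 and 12.78 with vehicle and 12.03 and 11.96 with deltamethrin. Its log2 fold change of -0.64 ± 0.18 (adjusted p = 0.225) is close to that of Ccng1.

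Trp53inp2, the relative of Trp53inp1 that also binds ATG8 proteins, had an estimate of the other sign, -0.60 ± 0.19 (limma adjusted p = 0.265). Its values were 12.95 and 12.73 with vehicle and 12.39 and 12.09 with deltamethrin, with no overlap. Of the antiproliferative relatives of Btg2, Btg1 was at 0.15, Tob1 at 0.11 and Tob2 at -0.31. Btg4, named after its values were seen, read 5.39 and 5.92 with vehicle and 5.93 and 6.66 with deltamethrin (0.64 ± 0.30, limma adjusted p = 0.412). Phlda1 (-0.13) and Phlda2 (0.06), relatives of Phlda3, had intervals that spanned 0. Isg20, an exonuclease related to Aen, was at 0.98 ± 0.18 (adjusted p = 0.110), from 5.60 and 5.87 to 6.74 and 6.68.

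The genes with the most similar values across the 4 arrays were found by Euclidean distance after centring on the vehicle mean, among 9961 named probe sets brighter than the median. For Trp53inp1 these were Nupr1 (distance 0.113 log2 units), Map1lc3a (0.168) and Stc2 (0.188), which encode a small stress-induced chromatin protein, an ATG8 protein and the secreted stanniocalcin 2. For Plk3 they were Zyg11b (0.0812), Rhbdd1 (0.0922) and Got1 (0.101), a ubiquitin ligase receptor, a rhomboid protease and the cytosolic aspartate aminotransferase. For Btg2 they were the transcription factor gene Klf6 (0.0574), Clba1 (0.0762) and the acid ceramidase gene Asah1 (0.0825). This likeness describes 4 values per gene and carries no test. None of the 9 genes was called in limma (adjusted p from 0.0664 to 0.127). That is no separate result, since they were picked for values close to those of members that were not called.

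The arrays were alike in overall distribution, with medians from 5.61 to 5.63. Of 13 measured neuroblastoma and neuron markers 12 were above the median of all probe sets, Ddc being dim. In this marker list 11 had lower estimates with deltamethrin, as did 11744 of all 22206 probe sets, and 0 were called in limma. At an unadjusted p below 0.05, 5 were lower (6.84% of all probe sets) and 0 higher (6.83%). With a mean-variance trend 3 (Isl1, Chrna3 and Ret) passed as lower (1.38% of all probe sets). The part of these markers in the results was not tested. Markers of astrocytes (0 of 5), oligodendrocytes and Schwann cells (0 of 4) and fibroblasts (0 of 5) did not exceed that median, and among microglia and macrophage markers 2 of 6 (Ptprc and Tmem119) did. None of these was called. Scan dates were not used here, and a batch that coincides with the groups cannot be told apart from them. In whole-culture RNA, fewer cells with a transcript and less transcript per cell cannot be told apart either.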

How the data were processed

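Per the submitters' processing notes, the authors made the deposited log2 values with Transcriptome Analysis Console and RMA (background correction, alignment of array distributions and summary per probe set). Their versions and the RMA variant: not given in the sources used here. All 22206 probe sets were fitted with limma 3.58.1 in R 4.3.3 (lmFit and eBayes, group as the only term), two-sided, and adjusted by the Benjamini-Hochberg method. The fit left 2 residual degrees of freedom, to which moderation added 4.43. The script was tested on simulated data in which 100 probe sets were changed by 1 log2 unit and 100 by 2. The median SE of a log2 fold change was 0.19, and the number of arrays limits the precision. Groups came from the sample titles. Gene names came from the platform annotation (19572 probe sets with 1 symbol, 2634 unnamed here), and for list genes the brightest probe set was used. The members and lists were chosen with earlier results of these data known. Named genes were all members, plus from each p53 pathway, family relative and Fas partner list those called in limma or with a mean-variance trend, otherwise up to 3 of smallest p, and a set of family and pathway genes always shown. Listed genes without a matched probe set, among them that of p53, were not analysed here. The alternatives were a replicate block, quantile, cyclic loess and median scaling, no dim probe sets (mean below the 40th percentile), a mean-variance trend, robust or no moderation, array weights, other thresholds and leaving out each array.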

Additional observations from a re-analysis of the deposited data

How the results depend on the processing

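Of the 10 members, 3 were called with a mean-variance trend (2 higher, 1 lower), 3 of 7 measured with dim probe sets left out (3 higher) and 2 at an adjusted p below 0.10. The count was 0 with the replicate block, scaling, other moderation, array weights, an adjusted p below 0.01, and with any 1 array left out (0 to 0). Over all probe sets the 96 calls became 806 with the trend, 312 without dim probe sets, 233 at an adjusted p below 0.10, 5 at one below 0.01, and 0 with the replicate block, without moderation and with any array left out (0 to 0). The replicate block lost the Faim2 call (log2 fold change 2.10 as before, adjusted p = 0.160) and changed no member's. The arrays numbered 1 deviated together only weakly (correlation 0.127), and the labels do not say that numbers pair arrays. Phlda3 changed sign under quantile (0.0425) and cyclic loess (0.0272) normalization and, with an array left out, ran from -0.32 to 0.30. Fadd (-0.17 to 0.36), Phlda1 (-0.36 to 0.10), Phlda2 (-0.20 to 0.31) and Pmaip1 (-0.31 to 0.045) changed sign with 1 array left out; the cause was not tested. There are no detection calls, so whether the members below the median of all probe sets (Plk2, Btg2, Phlda3, Fas) were above background is not known.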
